A study of Mus musculus with 3 samples.

Results

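The glutamate and GABA receptor genes were taken as every gene of the count table whose symbol begins like that of an ionotropic glutamate receptor, a metabotropic glutamate receptor or a GABA receptor subunit. The rule found 49 of the 50262 genes in the table. Of these, 47 encode receptor subunits, and the other two, Grid2ip and Grin1os, matched by symbol only, Grin1os being an antisense transcript of Grin1. By family there were 4 AMPA, 5 kainate, 2 delta, 7 NMDA, 8 metabotropic glutamate, 19 GABA-A and 2 GABA-B receptor genes. The cells came from mouse glioblastomas (GBMs) driven by human wild-type EGFR (hsEGFR). In all mice the EGFR transgene and a luciferase reporter were switched on by a Cre lentivirus injected into the striatum of adults that lacked Cdkn2a, on a mixed background with contributions from FVBN/J, Balb/cJ, SJL, 129S4 and C57Bl/6J. Cre was carried by the virus, so the recombined cells are those the virus reached and not those of 1 Cre driver line. Viable cells were sorted into CD45+ leukocytes and CD45- cells and encapsulated by inDrop. Each stage (early, medium, late) was represented by 1 tumor sample, with 2 tumors pooled where cells were few, and the 3 deposited samples are sequencing runs that each mix stages and sorts. The p-values below therefore rest on how differences between sorts or classes vary among tumor samples of unlike stage.

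Glutamate is the main fast excitatory transmitter of the brain and GABA the main inhibitory one. AMPA, kainate and NMDA receptors are cation channels gated by glutamate, GABA-A receptors are chloride channels, and the metabotropic and GABA-B receptors act through G proteins. Such receptors are best known in neurons, but oligodendrocyte progenitors receive synapses from neurons and carry AMPA and GABA-A receptors, astrocytes respond to glutamate and GABA through several of them, and glioma cells can form synapses with neurons through AMPA receptors.

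The members held 35286 UMIs, the unique molecular tags that stand for single captured mRNAs, in 20794 cells. After filtering, 17764 cells remained, with sums of 5319519 to 10808099 UMIs for each pair of sort and tumor sample. Clusters were named from marker genes, with the receptor genes left out of the clustering. Tumor cells were CD45- cells of tumor clusters with 2 or more hsEGFR UMIs, and there were 1137 of them, 4 early, 286 medium and 847 late. The normal classes were cells with no hsEGFR UMI in marker-named clusters, namely 291 oligodendrocyte progenitor-like, 160 astrocyte-like and 2704 oligodendrocyte-like cells, and neuron-like cells numbered 262. Of the 4 tumor clusters, 3 took the progenitor name from their markers and 1, with 11 CD45- cells, stayed unnamed, while the 11 progenitor markers summed to 21811 to 24667 CPM (UMIs per 1000000 UMIs of the same cells) in progenitor-like cells and to 4687 to 6276 in tumor cells. Tumor cells were deeper, with a median of 6300 UMIs against 2641 in progenitor-like, 1675.5 in astrocyte-like and 2468.5 in oligodendrocyte-like cells. Of 18320 distinct cell barcodes, 2116 occurred in more than 1 library. All levels are CPM unless given per cell, and since tags lie near the 3′ end of the transcript they carry no correction for gene length.

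Receptor genes were most abundant in neuron-like cells, and progenitor-like cells came next. All members together made up 6660 CPM in neuron-like, 3490 in progenitor-like, 1860 in astrocyte-like, 974 in tumor and 434 in oligodendrocyte-like cells of the CD45- sort. In the medium sample neuron-like, progenitor-like, astrocyte-like and tumor cells had 5360, 3380, 2220 and 932 CPM, and in the late sample 6820, 3570, 2880 and 989 CPM. Both samples had the classes in the same order. Tumor cells contributed 42.8% of the AMPA receptor UMIs of CD45- cells and held 32.3% of all their UMIs. Neuron-like cells, with 5.73% of the UMIs, contributed 53.7% of the GABA-A receptor UMIs.

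Of the 40 members with at least 50 UMIs, 24 had their highest CD45- level in neuron-like cells. Among them were Grin2b at 499 CPM, a subunit of the common neuronal NMDA receptors, Gabra4 at 148 CPM, a GABA-A subunit, and Gabbr1 at 462 CPM. Progenitor-like cells had the highest level of 10 members, among them Gria3, Gria4, Grik1, Grik3, Grik4, Grid1, Grin2d, Grin3a and Gabrg3. Astrocyte-like cells had that of 4, which were Grin2c, Grm3, Gabrb1 and Gabrg1. Gabrr2 was highest in oligodendrocyte-like cells, at 5.29 CPM. Grin3b was listed highest in tumor cells at 11.3 CPM, but its level was 11.2 CPM in both progenitor-like and astrocyte-like cells and 10.4 CPM in neuron-like cells, so that these levels could not be told apart.

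**Figure D1:**
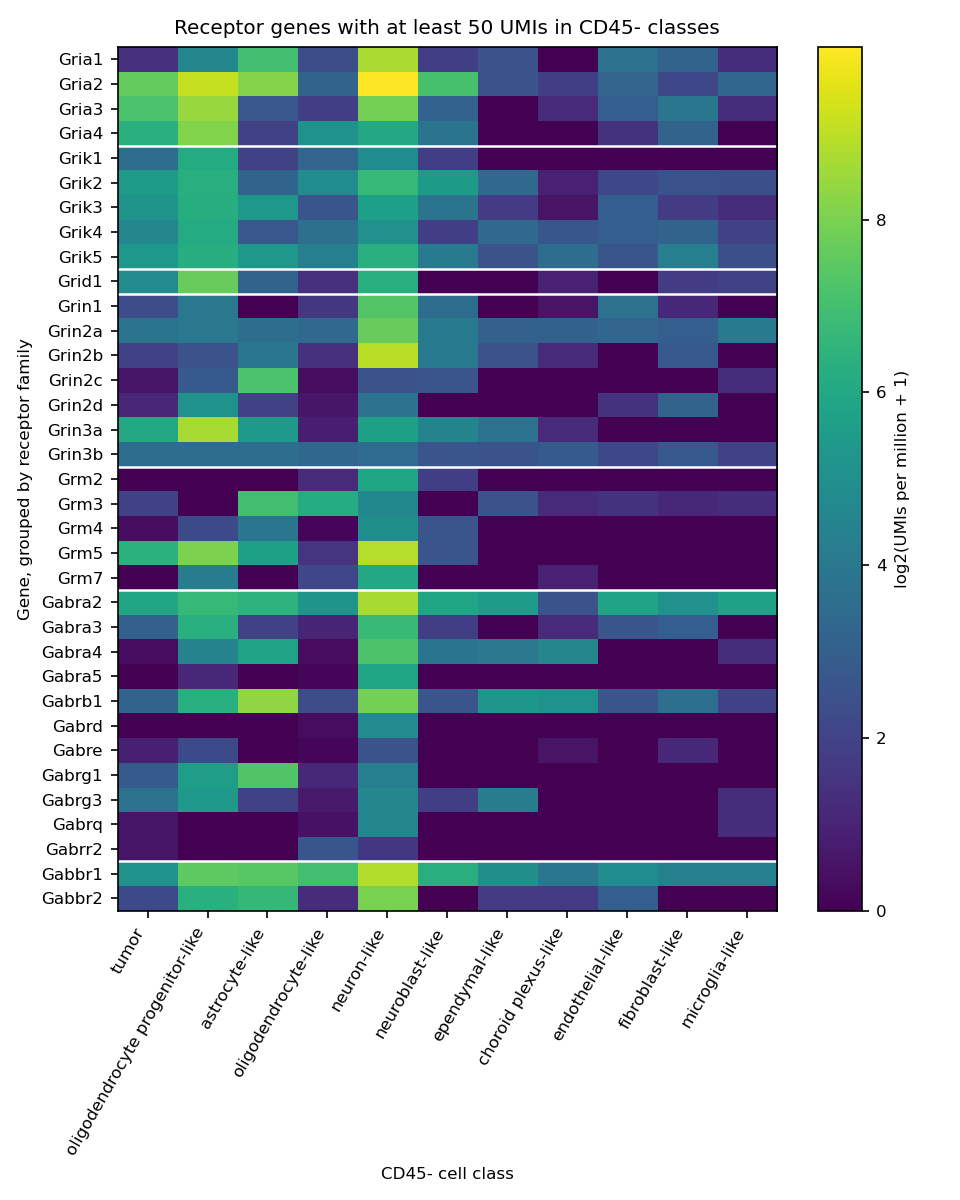
Levels of 35 receptor genes with at least 50 UMIs in 11 classes of CD45- cells, all tumor samples summed, as log2(CPM + 1) on the color scale, with white lines between receptor families. Neuron-like cells are brightest for 20 of them and progenitor-like cells for 9, while the tumor column is bright for Gria2, Gria3, Gria4, Grin3a and Grm5 and dark for most GABA-A subunits.

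The sorts were compared to place the receptors in the leukocyte or the other compartment. Receptor genes lay in the CD45- sort, where 29 of the 36 members tested were higher and 0 lower (edgeR quasi-likelihood test on 3 pairs of summed counts, Benjamini-Hochberg over all genes). The background was 25.7% of all 18510 tested genes higher and 20.3% lower. Another 7 members did not pass, among them Gabra2, Grik4 and Grin3b. With counts scaled per cell 35 of 36 were higher and 0 lower, on a background of 62.0% higher and 8.4% lower, and the median over all genes moved from 0.04 to 1.10. By CPM the median log2 fold change was 2.61 for the tested members and 0.04 for all genes. All 10 neuron markers and all 11 progenitor markers were higher in the same sort. In such sums fewer cells of a type and less RNA per cell cannot be told apart.

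Gria2, the AMPA subunit that sets calcium permeability, had 114, 122 and 220 CPM in CD45- cells of the early, medium and late samples and 16.4, 13.3 and 20.7 CPM in CD45+ cells. The sorts did not overlap (log2 fold change 2.77, SE 0.22, adjusted p = 0.000152 by edgeR). Gabbr1, a GABA-B subunit, had 95.8, 92.2 and 88.0 CPM in CD45- and 23.3, 7.81 and 13.7 CPM in CD45+ cells (2.38, SE 0.30, adjusted p = 0.000747). Grin3a, an NMDA subunit, had 26.8, 59.9 and 40.2 CPM against 1.85, 5.96 and 2.63 CPM (3.29, SE 0.26, adjusted p = 0.000157). Neither gene had overlapping sorts. By family, 4 of 4 AMPA, 4 of 5 kainate, 6 of 7 NMDA, 3 of 5 metabotropic, 8 of 11 GABA-A and 2 of 2 GABA-B receptor genes tested were higher. The calls of Grin1 (0.94, adjusted p = 0.0302) and Grin2a (0.79, adjusted p = 0.0257) were the least firm, and were lost under 8 and 7 of 13 alternatives.

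Gabra2, which encodes the alpha2 subunit of GABA-A receptors, did not share this pattern by CPM. It had 50.6, 54.4 and 88.9 CPM in CD45- and 61.8, 50.3 and 84.8 CPM in CD45+ cells. The sorts overlapped, and the fitted change was -0.40 (SE 0.19, adjusted p = 0.122 by edgeR), whereas with counts scaled per cell it was 0.67 and passed the test as higher. Gabra2 stood at 66.8 CPM in T cell-like and 64.7 CPM in microglia-like CD45+ cells, next to 59.3 CPM in tumor cells. After each cell was thinned to 1000 UMIs, Gabra2 was found in 6.72% of T cell-like cells (95% exact interval 5.09 to 8.67), 5.6% of tumor cells (4.33 to 7.11) and 13% of progenitor-like cells (9.31 to 17.6). The intervals of tumor and T cell-like cells overlapped. The source of Gabra2 UMIs in leukocytes was not tested. Grik4, a kainate receptor subunit, had 44.0 CPM in T cell-like cells and was found in 4.23% of them after thinning (2.95 to 5.86), against 0.526% of CD45+ microglia-like cells (0.352 to 0.754).

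Tumor cells were then compared with progenitor-like cells, the normal class whose name 3 of the 4 tumor clusters share. Counts were summed for each tumor sample and class, and sums of at least 20 cells entered, which left 2 tumor sums (medium and late) and 3 progenitor-like sums. Of the 49 members, 26 passed the filter on low counts. In tumor cells 20 of them were lower and 0 higher, where the background was 11.0% of all 10218 tested genes lower and 15.3% higher (edgeR with tumor sample as a block). The median log2 fold change was -2.20 for these members and 0.02 for all genes. In 23 of 26 the 2 tumor sums did not overlap the 3 progenitor-like sums, and in 22 of them the tumor sums were the lower ones. Over all tested genes the sums did not overlap with the tumor sums lower in 29.9% and with them higher in 20.1%. By family the lower genes were 4 of 4 AMPA, 1 of 5 kainate, 2 of 3 NMDA, 1 of 2 metabotropic, 8 of 8 GABA-A and 2 of 2 GABA-B receptor genes tested. The other 23 members, 21 of them receptor subunit genes, had 0 to 1043 UMIs in all and are described by counts only.

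The size of the difference depended on the scale. By CPM 25 of 26 members stood lower in tumor cells, whereas per cell 19 did. With counts scaled per cell the median over all genes moved from 0.02 to 1.03. Then 12 members were lower and 1, Grm3, higher, on a background of 2.95% lower and 47.2% higher. That Grm3 call rests on 23 UMIs in tumor and 0 in progenitor-like cells, and Grm3 did not pass by CPM. The difference between the median of the members and that of all genes was -2.23, compared with -2.22 by CPM. This scaling moves all genes nearly alike, so that difference was bound to stay and is no check of the result. Only the medium and late samples gave a tumor sum, and without the medium sample 12 of 28 members were lower and 0 higher, on a background of 4.24% lower and 7.48% higher of 11719 genes.

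Other measures moved with this result. The 10 neuron markers summed to 482 to 557 CPM in progenitor-like and to 228 to 237 CPM in tumor cells, and 4 of the 5 tested were lower in tumor cells. At 0 were Rbfox3, Stmn2, Nefl and Nefm in the early progenitor-like sum, Syt1 and Nefl in the medium one, Rbfox3, Nefl and Nefm in the late one, and Rbfox3 and Nefm in the medium tumor sum. The late tumor sum had no neuron marker at 0. Of the 11 progenitor markers, 9 were lower in tumor cells. These markers gave the progenitor-like class its name, so their direction was not independent of the choice of class. Oligodendrocyte markers summed to 622 to 1837 CPM in progenitor-like and 2960 to 3530 CPM in tumor cells, with 6 of 12 higher and 0 lower in tumor cells. Astrocyte markers summed to 892 to 1169 and 412 to 860 CPM, with 3 of 11 higher and 6 lower. Summed microglia markers were 320 to 385 CPM in progenitor-like and 1626 to 2535 CPM in tumor cells, where of 5 tested 1 was higher and 1 lower. The rise of the sum was thus not shared by the list, whose median log2 fold change was -0.55. The part of depth and of RNA from these other cell types in the difference was not tested. The 330 cells of tumor clusters with fewer than 2 hsEGFR UMIs, which did not enter, had 947 CPM of all members, close to the 974 CPM of tumor cells.

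**Figure D2:**
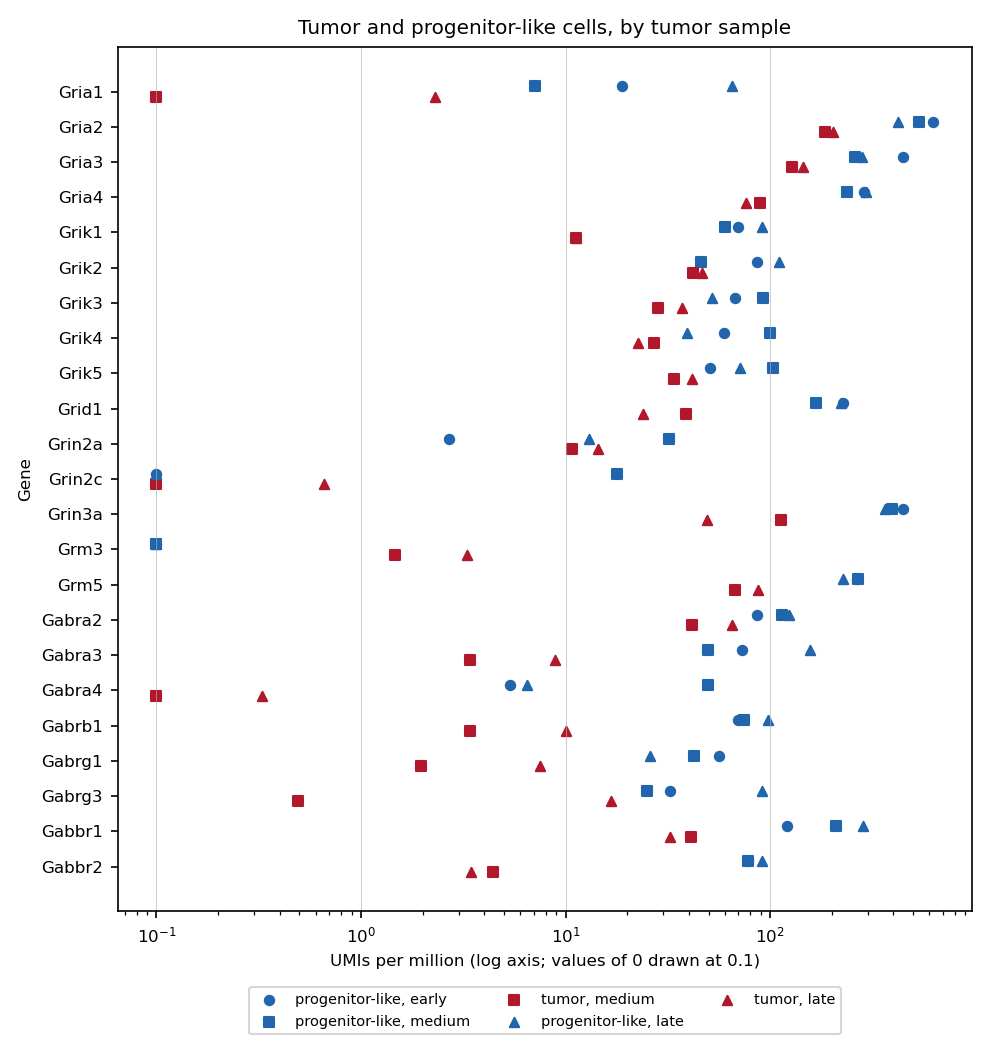
CPM (log axis, values of 0 drawn at 0.1) of 23 tested receptor genes in tumor cells (red; medium squares, late triangles) and progenitor-like cells (blue; early circles, medium squares, late triangles). The red points lie at lower levels than all blue points in 19 of 23 genes, and the others are Grik2, Grin2a, Grin2c and Grm3. Of all tested genes, 29.9% had tumor sums below all progenitor-like sums.

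AMPA receptor genes were the most abundant receptor family of tumor cells, with 422 CPM summed over 4 genes, against 1200 CPM in progenitor-like, 416 in astrocyte-like, 1750 in neuron-like and 48.5 in oligodendrocyte-like cells. Gria2 had 185 and 204 CPM in tumor cells of the medium and late samples and 627, 537 and 423 CPM in progenitor-like cells, with samples in the order of stage here and below (log2 fold change -1.14, SE 0.28, adjusted p = 0.00207). Gria3 had 128 and 145 CPM against 446, 259 and 280 CPM, and its change of -0.80 (SE 0.30, adjusted p = 0.0472) was the smallest of the family. Under 17 alternatives the call was kept 6 times, lost 10 times and reversed 1 time. Tumor cells held 1.01 and progenitor-like cells 0.969 Gria3 UMIs per cell, and scaling per cell turned the fitted value to 0.20.

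Gria4 had 89.7 and 76.3 CPM in tumor cells and 288, 238 and 293 CPM in progenitor-like cells, a log2 fold change of -1.42 (SE 0.30, adjusted p = 0.00041). Gria1, which was highest in neuron-like and astrocyte-like cells, had 0 and 2.30 CPM against 18.8, 7.11 and 65.1 CPM, or 14 UMIs in tumor and 19 in progenitor-like cells (-3.92, SE 1.04, adjusted p = 0.00607). By CPM all 4 genes were lower in tumor cells, and none of their samples overlapped. Of all tested genes, 29.9% had both tumor sums below all progenitor-like sums. With counts scaled per cell the calls of Gria2, Gria3 and Gria4 were lost, and that of Gria2 was also lost without the medium sample. Per cell, Gria2 stood at 1.43 UMIs in tumor and 1.54 in progenitor-like cells.

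Within the family, Gria2, Gria3 and Gria4 held similar shares in both classes, and Gria1 a small one. Gria2 held 46.0% and 47.7% of AMPA receptor UMIs in tumor cells and 45.4%, 51.5% and 39.9% in progenitor-like cells. Over all samples Gria3 held 33.4% in tumor and 29.1% in progenitor-like cells, Gria4 18.9% and 22.6%, and Gria1 0.407% and 1.96%. Tumor cells were unlike astrocyte-like cells, where Gria2 held 67.1% and Gria1 30.9%, oligodendrocyte-like cells, where Gria4 held 69.7%, and neuron-like cells, where Gria2 held 58.5% and Gria1 24%. These shares are descriptions without a test.

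**Figure D3:**
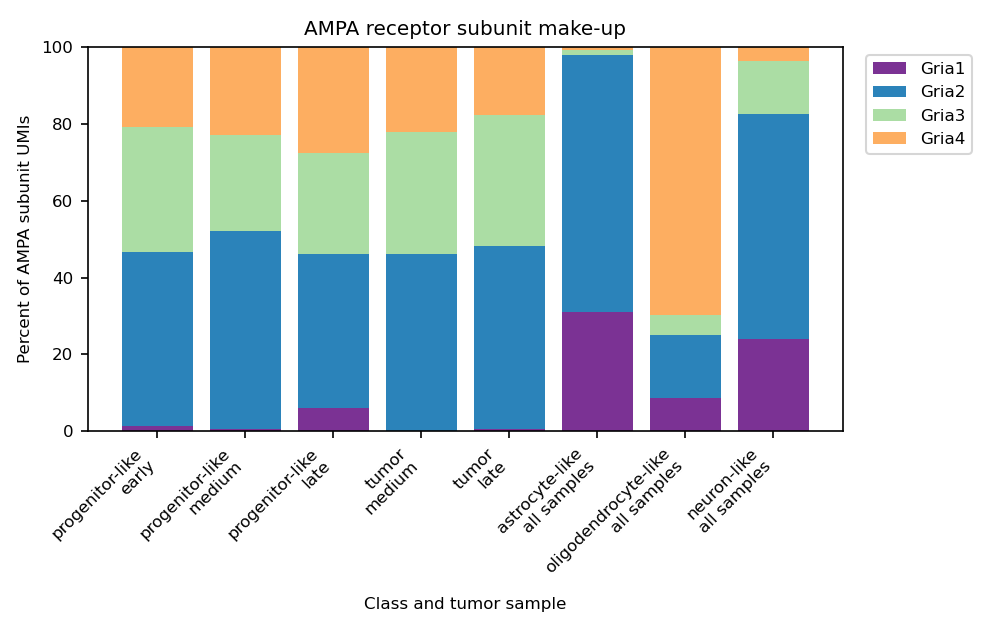
Percent of AMPA receptor UMIs from Gria1, Gria2, Gria3 and Gria4 in progenitor-like cells of 3 tumor samples, tumor cells of 2, and astrocyte-like, oligodendrocyte-like and neuron-like cells over all samples (stacked bars, 0 to 100%). The 5 left bars are alike, with Gria2 between 39.9% and 51.5%, while Gria1 is visible in astrocyte-like and neuron-like cells and Gria4 fills most of the oligodendrocyte-like bar.

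Kainate receptor genes had the smallest share of calls, 1 of 5. Grik1 was lower in tumor cells, with 11.3 CPM in both tumor samples against 69.9, 60.4 and 91.1 CPM in progenitor-like cells (log2 fold change -2.66, SE 0.54, adjusted p = 0.000236). Grik2, Grik3, Grik4 and Grik5 did not pass, with adjusted p-values of 0.211, 0.176, 0.0718 and 0.11 by edgeR and log2 fold changes of -0.73, -0.88, -1.11 and -0.87. Grik2 had 42.1 and 46.7 CPM in tumor cells and 86.1, 46.2 and 111 CPM in progenitor-like cells, which overlapped. Grik3 had 28.4 and 36.9 against 67.2, 92.4 and 52.1 CPM, Grik4 27.0 and 22.5 against 59.2, 99.5 and 39.1 CPM, and Grik5 33.8 and 41.3 against 51.1, 103 and 71.6 CPM. In these 3 genes the tumor sums were below all progenitor-like sums, as they were in 29.9% of all tested genes. A 2-fold change would often be missed here, since 23.1% of simulated 2-fold changes were recovered in this comparison and 80.2% of 4-fold ones. Grik1 held 7.31% of kainate receptor UMIs in tumor cells (95% exact interval 5.93 to 8.89) and 19.5% in progenitor-like cells (15.1 to 24.5).

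Grid1, a delta receptor that organizes synapses by binding cerebellins, was lower in tumor cells. It had 38.7 and 23.9 CPM in tumor cells and 226, 167 and 221 CPM in progenitor-like cells (log2 fold change -2.46, SE 0.39, adjusted p = 7.51e-06). Per cell, Grid1 stood at 0.199 UMIs in tumor and 0.567 in progenitor-like cells, so its direction was the same on that scale. The tumor values pool the types described below, and cells of the Lgals1 type had almost no Grid1.

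Among NMDA receptor genes, Grin3a held the largest share in both classes, though tumor cells of the Lgals1 type described below had almost none of it. Grin3a encodes a glycine-binding subunit that lowers the calcium permeability of the channel. It held 66.1% of NMDA receptor UMIs in tumor cells (62.7 to 69.4) and 82.8% in progenitor-like cells (78.7 to 86.4), against 5.29% in neuron-like cells, where Grin2b held 53.0%. Grin3a had 113 and 49.4 CPM in tumor cells and 444, 394 and 364 CPM in progenitor-like cells, with a log2 fold change of -2.14 (SE 0.33, adjusted p = 4.16e-06). Grin2a did not pass, with 10.8 and 14.4 CPM against 2.69, 32.0 and 13 CPM and an adjusted p of 0.727.

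Grin2c, an astrocytic subunit, passed on 4 UMIs in tumor and 5 in progenitor-like cells, all 5 of them in the medium sample. The samples overlapped, and without the medium sample its fitted value turned to 2.35, so this call rests on that sample. Grin1, the subunit that every NMDA receptor needs, had 34 UMIs (4.17 CPM) in tumor, 12 UMIs (14.9 CPM) in progenitor-like and 233 UMIs (161 CPM) in neuron-like cells. It overlaps the antisense gene Grin1os on chromosome 2, whose 11 UMIs cannot be told apart from those of Grin1 where counting ignores strand. Grin2b had 24 UMIs in tumor cells and 4 in progenitor-like cells.

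Grm5 was the main metabotropic receptor gene of tumor and progenitor-like cells, and it encodes a receptor that signals through phospholipase C. It had 67.1 and 87.4 CPM in tumor cells and 266, 270 and 228 CPM in progenitor-like cells (log2 fold change -1.28, SE 0.36, adjusted p = 0.00744), with no overlap. The call was lost under 4 of 17 alternatives, which were DESeq2, classes without clusters, counts scaled per cell and leaving out the medium sample. Per cell the values were 0.591 and 0.722 UMIs. Grm3 went the other way in its counts, with 23 UMIs in tumor cells and 0 in progenitor-like cells. A count of 0 allows up to 3, so that by CPM a difference was not detectable at this depth (edgeR adjusted p = 0.171). Grm7 had 14 UMIs in progenitor-like cells and 0 in the 8161143 UMIs of tumor cells.

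All 8 tested GABA-A receptor genes were lower in tumor cells, and the family summed to 120 CPM in tumor, 565 in progenitor-like, 622 in astrocyte-like and 2110 in neuron-like cells. Gabrb1, a beta subunit, had 3.43 and 10.0 CPM in tumor cells and 69.9, 74.6 and 97.6 CPM in progenitor-like cells (log2 fold change -3.19, SE 0.49, adjusted p = 3.49e-06). Gabra3, an alpha subunit, had 3.43 and 8.86 CPM against 72.6, 49.8 and 156 CPM, and its change was -3.58. Tumor cells of the Lgals1 type described below had almost no Gabra3. In none of the 8 genes tested did a tumor sum reach a progenitor-like sum, and the same held for 29.9% of all tested genes.

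The gamma subunit gene Gabrg1 had 1.96 and 7.54 against 56.5, 42.6 and 26.0 CPM (-2.83), and Gabrg3 had 0.49 and 16.7 against 32.3, 24.9 and 91.1 CPM (-2.79). Lgals1-type cells had almost no Gabrg1 but held most Gabrg3 UMIs of tumor cells. Gabra4 had 2 UMIs in tumor and 17 in progenitor-like cells, 14 of them in the medium sample, a CPM ratio of 0.0117 (95% counting interval 0.00131 to 0.0491). Gabra2 differed least, with 41.7 and 65.4 CPM against 86.1, 114 and 124 CPM (log2 fold change -1.09, SE 0.35, adjusted p = 0.0177). The call of Gabra2 was lost under 8 of 17 alternatives and that of Gabrg3 under 6 of 16. Gabra2 held 49.4% of GABA-A receptor UMIs in tumor cells (46.3 to 52.6) and 18.2% in progenitor-like cells (14.8 to 22.1). Gabra2 was also found in CD45+ cells, as given above, and whether RNA from them had a part in these shares was not tested.

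Some of these genes lie side by side in the genome (GENCODE annotation of GRCm38). Gabrg1 (chr5:70751047-70842617), Gabra2 (chr5:70957597-71095849), Gabra4 (chr5:71569749-71658308) and Gabrb1 (chr5:71658113-72149037) share a cluster on chromosome 5 of GRCm38, in which Gabra4 on the minus strand and Gabrb1 on the plus strand overlap at their 5′ ends. All 4 genes of this cluster were lower in tumor cells.

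Both GABA-B receptor genes, whose products form an obligate pair, were lower in tumor cells. Gabbr1, the ligand-binding partner, had 41.2 and 32.3 CPM in tumor cells and 121, 210 and 286 CPM in progenitor-like cells (log2 fold change -2.26, SE 0.33, adjusted p = 1.35e-06). Gabbr2, the partner that couples to the G protein, had 4.41 and 3.44 CPM against 78.0, 78.2 and 91.1 CPM, and its change was -4.44 (SE 0.65, adjusted p = 1.62e-06). The tumor level of Gabbr2 was thus 0.0458 of the progenitor-like level and that of Gabbr1 0.188. Tumor cells of the Lgals1 type described below had 1 Gabbr2 UMI in the late sample. Per cell Gabbr1 stood at 0.248 against 0.509 UMIs.

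The 100 bases before the start annotated by RefSeq are shown for Gabbr1, Gabbr2 and Gabrb1. They are the 3 genes with the smallest adjusted p among those called lower in tumor than in progenitor-like cells by edgeR. Only genes with a promoter in the RefSeq table (GRCm38.p6) were eligible. The table gives Gabrb1 a pair of starts, and both are shown. In the GENCODE annotation the Gabbr2 stretch lies inside its gene (chr4:46662305-46991873), as does the stretch of the second Gabrb1 start. Capitals mark the letters GGGCGG of the GC box, and CCGCCC was searched on the other strand.
Gabbr1, chr17:37045866-37045965, plus strand: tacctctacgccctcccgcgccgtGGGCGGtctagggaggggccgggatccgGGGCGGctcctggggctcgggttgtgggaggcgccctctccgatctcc
Gabbr2, chr4:46991715-46991814, minus strand: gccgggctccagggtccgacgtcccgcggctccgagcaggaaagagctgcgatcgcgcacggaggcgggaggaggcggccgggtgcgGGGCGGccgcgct
Gabrb1, chr5:71657821-71657920, plus strand, first start: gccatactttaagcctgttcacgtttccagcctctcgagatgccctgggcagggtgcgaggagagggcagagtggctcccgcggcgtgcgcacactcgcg
Gabrb1, chr5:71699832-71699931, plus strand, second start: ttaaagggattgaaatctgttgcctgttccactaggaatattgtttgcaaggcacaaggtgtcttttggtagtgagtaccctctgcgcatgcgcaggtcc
Promoters were found for 34 members, and 15 members had none in the table. In the 250 bases before the start, the GC box occurred in 47.6% of 42 member promoters and in 32.7% of all 32851 promoters. The E-box CAGCTG, which reads the same on both strands, occurred in 2.38% and 13%, and ACAAAG or its complement CTTTGT, letters that SOX proteins bind, in 7.14% and 16.5%. In the 13 promoters of members lower in tumor cells the GC box occurred in 46.2%, the E-box in 0 and the SOX letters in 15.4%. These are counts of letters, with no test.

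Against astrocyte-like and oligodendrocyte-like cells the same genes gave other values, from the same fit and with the same tumor sums. Compared with astrocyte-like cells, 2 of 26 members were higher and 9 lower, on a background of 14.1% higher and 10.4% lower. Compared with oligodendrocyte-like cells, 10 were higher and 2 lower, on a background of 23.5% and 19.3%. The median log2 fold change of the members was -0.26 and 0.53, against 0.21 and 0.04 for all genes.

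The 9 members called lower than in astrocyte-like cells included Gabrb1, Grm3, Grin2c and Gabrg1, which had their highest CD45- level in that class, and others that were highest in neuron-like cells. Gabrb1 had 3.43 and 10.0 CPM in tumor cells and 265, 420 and 206 CPM in astrocyte-like cells (log2 fold change -5.47, SE 0.49, adjusted p = 4.86e-11). Grm3, the main metabotropic glutamate receptor of astrocytes, had 1.47 and 3.28 CPM against 93.7, 133 and 235 CPM (-5.73, SE 0.54, adjusted p = 2.62e-10). Gria1, Grin2c, Gabrg1, Gabra4, Gabbr1 and Gabbr2 were lower as well. Gabra2 was also called lower, but its samples overlapped, and under 17 alternatives the call was lost 9 times and reversed 1 time. Tumor cells had more of Gria3 and Gria4, for which astrocyte-like cells held 2 UMIs and 1 UMI. Their CPM ratios were 25.3 (95% counting interval 6.98 to 209) and 28.5 (5.10 to 1130). Grin3a and Grm5 did not pass, each with a log2 fold change of 0.89 (adjusted p = 0.214 and 0.243), nor did Gria2 at -0.51 (SE 0.31, adjusted p = 0.259). The astrocyte-like sums held only 23 to 83 cells, and 53.8% of simulated 4-fold changes were recovered here.

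Oligodendrocyte-like cells had little of most receptors, and several were higher in tumor cells. Gria2 had 8.77, 6.98 and 7.68 CPM in oligodendrocyte-like cells against 185 and 204 CPM in tumor cells (log2 fold change 4.25, SE 0.31, adjusted p = 5.45e-14). Gria3 was higher by 5.50, Grin3a by 6.09, Grm5 by 5.27, Grid1 by 3.83, Gabrg3 by 2.71, Grik3 by 2.16, Gabra3 by 2.09 and Gria4 by 0.91 on the log2 scale. Of these, Gabrg3 had overlapping samples. Grik2 did not pass, with a log2 fold change of 0.05 (adjusted p = 0.924). Gabbr1 was lower in tumor cells, with 41.2 and 32.3 CPM against 110, 146 and 131 CPM (-2.33, SE 0.30, adjusted p = 4.39e-08). Grm3 was lower too, with 66.6, 76.8 and 79.4 CPM in oligodendrocyte-like cells (-5.30, SE 0.45, adjusted p = 3.36e-12).

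On the CPM scale, Gabbr1 was the only tested member called lower in tumor cells than in each of the 3 normal glial classes. With counts scaled per cell, its calls against astrocyte-like (edgeR adjusted p = 0.101) and oligodendrocyte-like cells (adjusted p = 0.0526) were lost. Gria3 and Gria4 were lower than in progenitor-like cells and higher than in the other two classes, by calls on the CPM scale. With counts scaled per cell, 13 of 26 members were higher and 7 lower than in astrocyte-like cells, on a background of 66.8% and 3.68%. Against oligodendrocyte-like cells 19 were higher and 1 lower, on a background of 77.0% and 5.2%. The median of all genes then moved to 1.83 and 1.66.

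**Figure D4:**
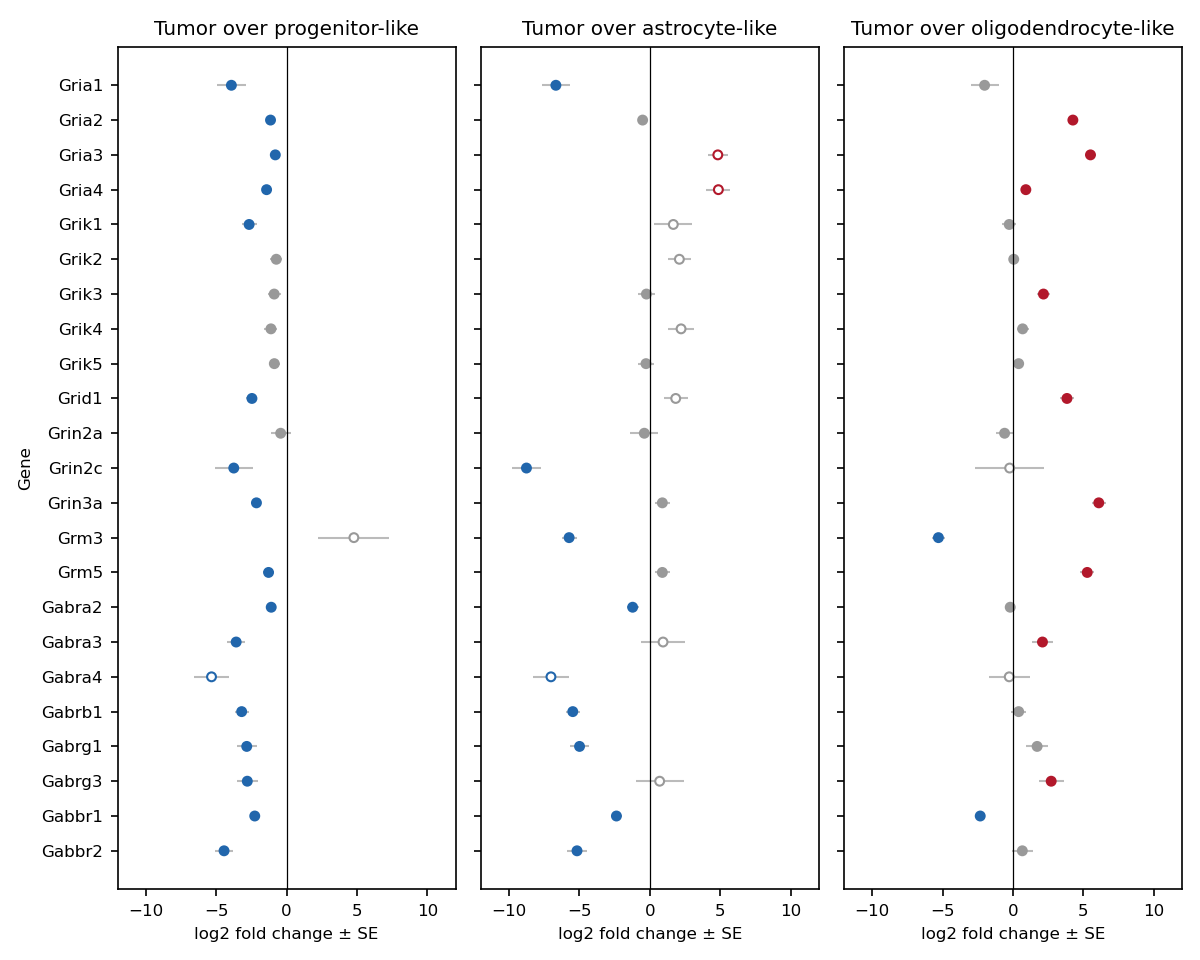
Log2 fold change of tumor cells over progenitor-like, astrocyte-like and oligodendrocyte-like cells with its standard error (SE) from edgeR for 23 tested receptor genes; red is higher and blue lower at an adjusted p under 0.05, gray did not pass, and open points mark genes with 3 or fewer UMIs in either class. Blue fills the left panel with 17 genes, the middle panel has 9 blue and 2 red ones and the right panel 2 blue and 9 red ones.

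Tumor cells were next divided by cluster into those with more Pdgfra and less Lgals1 than tumor cells on the whole (Pdgfra-type) and those with the reverse (Lgals1-type), as the study sorted tumor cells by these proteins. Pdgfra and Lgals1 chose the clusters and are not results. The late sample held 422 Pdgfra-type and 425 Lgals1-type cells and the medium sample 173 Pdgfra-type cells, while its 8 and the early sample's 4 Lgals1-type cells were too few to enter. The comparison therefore rests on a lone Lgals1-type sum. It has no spread of its own and is assumed to vary like the other sums, whose spread alone stands behind the adjusted p-values given here. Of 32 members tested, 7 were higher and 2 lower in Pdgfra-type cells, on a background of 6.65% higher and 6.8% lower of 14954 genes (edgeR).

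The genes that were higher included Grin3a and Grid1. Grin3a had 180 and 119 CPM in Pdgfra-type cells (medium, late) and 0.557 CPM (2 UMIs) in Lgals1-type cells. Its log2 fold change was 7.46 (SE 0.72, adjusted p = 1.06e-22), and its CPM ratio had a 95% counting interval of 68.8 to 2070. Grid1 had 61.5 and 57.1 CPM against 0.835 CPM, or 3 UMIs (5.91, SE 0.78, adjusted p = 2.93e-12). In each of these 2 genes both Pdgfra-type sums lay above the Lgals1-type sum.

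Gabra3, Gabrg1 and Gabbr2 were higher as well, each with 1 UMI in Lgals1-type cells and counting intervals of the CPM ratio of 9.82 to 2290, 8.09 to 1900 and 4.64 to 1140, and Grik4 was higher by 1.91 (SE 0.62, adjusted p = 0.0176). Gabrg3 was lower in Pdgfra-type cells, with 0 and 2.00 CPM against 27.0 CPM (-4.02, SE 0.93, adjusted p = 0.000279), while among CD45- classes it was highest in progenitor-like cells. Grin3a, Grid1 and Gabra3 kept their calls under all 12 alternatives.

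AMPA receptor genes and Grm5 did not pass between the types. Gria2 had 223 and 289 CPM in Pdgfra-type and 145 CPM in Lgals1-type cells, a log2 fold change of 0.62 (SE 0.37, adjusted p = 0.358), and Gria3 had a change of 0.17 (SE 0.39, adjusted p = 0.922). Grm5 had 99.2 and 98.6 CPM against 79.6 CPM (0.05, SE 0.42, adjusted p = 0.982). In this comparison 43.2% of simulated 4-fold changes were recovered, so that smaller differences may have been missed. All members together reached 1190 and 1370 CPM in Pdgfra-type and 726 CPM in Lgals1-type cells, below the 3490 CPM of progenitor-like cells. The 105 tumor cells of a cluster of neither type, all from the medium sample, had 568 CPM.

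Marker lists also moved with type. Without Pdgfra, which chose the types, the other 10 progenitor markers summed to 7237 to 7999 CPM in Pdgfra-type and 2190 CPM in Lgals1-type cells, and 7 of them were higher and 0 lower in Pdgfra-type cells. The 8 microglia markers summed to 222 to 357 CPM and 4149 CPM, with P2ry13 and Gpr34 at 0 in both Pdgfra-type sums and no marker at 0 in Lgals1-type cells. Neuron markers summed to 214 to 296 CPM and 196 CPM. Astrocyte markers summed to 342 to 416 CPM and 1221 CPM, with 6 of 11 higher and 3 lower in Pdgfra-type cells, and oligodendrocyte markers to 2918 to 4822 CPM and 2630 CPM, with 4 of 12 higher and 3 lower. Their part in the receptor differences was not tested.

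**Figure D5:**
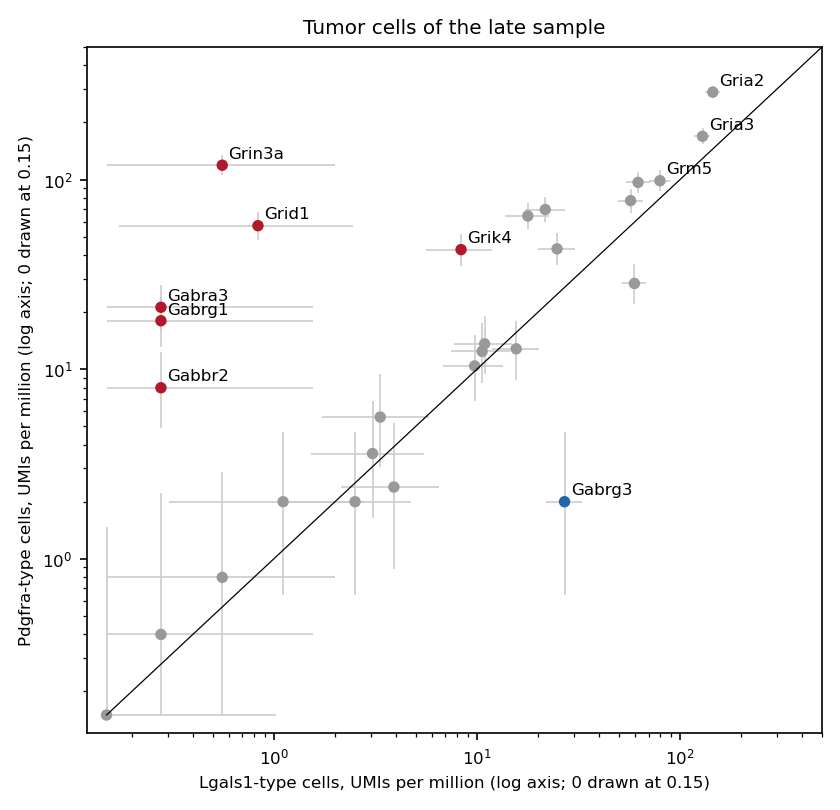
CPM of 28 receptor genes in Pdgfra-type (y axis) and Lgals1-type (x axis) tumor cells of the late sample, both axes log, values of 0 drawn at 0.15, bars for exact 95% Poisson intervals and a line of equal level; red is higher and blue lower in Pdgfra-type cells in the edgeR fit. Grin3a, Grid1, Gabra3, Gabrg1 and Gabbr2 lie far above the line, Gabrg3 below it, and Gria3 and Grm5 near it.

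Across stages, with 1 sample each, values are given with no test. In tumor cells all members together had 932 CPM at the medium stage and 989 CPM at the late stage, a ratio of 1.06 (95% counting interval 1.01 to 1.12). Within the sequencing runs the ratio was 1.13, 0.962 and 1.25, and it was 0.975 with cells thinned to 1000 UMIs, so the direction was not the same in each. Grin3a had 113 CPM in tumor cells of the medium sample and 49.4 CPM in those of the late one, and within Pdgfra-type cells 180 and 119 CPM. Grid1 had 38.7 and 23.9 CPM, and within Pdgfra-type cells 61.5 and 57.1 CPM. The part of the mix of tumor types in these values was not tested. Gabrg3 had 102 UMIs in tumor cells of the late sample, of which 97 were in Lgals1-type cells, and 1 in those of the medium sample. In progenitor-like cells the sums were 3530, 3380 and 3570 CPM by stage.

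Shares of cells with a UMI are given for single genes. After thinning to 1000 UMIs, Gria2 was found in 16.0% of tumor cells (95% exact interval 13.9 to 18.3), 33.0% of progenitor-like cells (27.5 to 38.9) and 0.124% of T cell-like cells (0.00315 to 0.691). In the CD45- sort itself, Gria2 was found in 1.03% of microglia-like (0.214 to 2.99), 0.715% of oligodendrocyte-like (0.431 to 1.11) and 0.654% of endothelial-like cells (0.0793 to 2.34). Without thinning the shares of tumor, progenitor-like, T cell-like and CD45- microglia-like cells were 49.0%, 56.0%, 0.48% and 1.97%, at median depths of 6300, 2641, 1890 and 1979 UMIs. Gria3 was found in 12.9% and 22.5%, Gria4 in 6.93% and 19.6%, Grin3a in 6.4% and 29.0%, Grid1 in 3.73% and 19.6%, Grm5 in 5.42% and 15.6% and Gabbr1 in 3.2% and 13.4% of thinned tumor and progenitor-like cells. Each of these shares was lower in tumor cells. Thinning left out 12 tumor and 15 progenitor-like cells.

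Genes that work with the receptors were compared from 4 lists. Of 8 synaptic adhesion genes, 8 were lower in tumor than in progenitor-like cells, with the neurexin Nrxn2 at -2.72 and the postsynaptic partners Lrrtm2 at -2.14 and Lrrtm3 at -1.78 on the log2 scale. Of 17 tested receptor auxiliaries and scaffolds, 6 were lower and 0 higher. Shisa9 (-3.41), Cacng4 (-1.97) and Gsg1l (-3.58) encode proteins that bind AMPA receptors, and Dlg2 (-3.28) encodes a postsynaptic scaffold. Cacng4 remained abundant, with 317 and 242 CPM in tumor cells against 1200, 1120 and 1650 CPM.

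Of 8 tested genes of glutamate uptake and metabolism, 5 were lower and 0 higher. The glial glutamate transporter Slc1a2 had 55.9 and 38.2 CPM in tumor cells against 756, 874 and 761 CPM in progenitor-like cells (log2 fold change -3.85, SE 0.31, adjusted p = 1.97e-11 by edgeR). Slc1a3 changed by -1.58 and Slc1a1 by -1.10. Slc1a4, a neutral amino acid transporter of the same gene family that the list includes, changed by -2.29. Of 16 tested genes for GABA synthesis, uptake and receptor partners, 8 were lower and 0 higher, among them the GABA transporter Slc6a11 (-4.56), the GABA-synthesizing enzyme Gad1 (-3.79) and Lhfpl3 (-1.55). The background of 11.0% lower genes applies to these lists too. Between the tumor types, where the background was 6.65% higher and 6.8% lower, Pdgfra-type cells had 5 of 8 adhesion genes, 4 of 23 auxiliaries and scaffolds and 2 of 9 uptake genes higher and 0 lower, and 7 of 17 GABA genes higher and 1 lower.

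Of the members that did not enter the class comparison, some are given here by their UMIs. Neuron-like CD45- cells had 85 Grm2, 93 Grm7, 86 Gabra5, 39 Gabrd, 33 Gabrq, 44 Grm4 and 19 Grm8 UMIs. Tumor cells had none of Grm2, Grm7, Gabra5, Gabrd and Grm8, 2 UMIs of Grm4 and 4 of Gabrq. Grin2d had 27 UMIs in progenitor-like, 9 in tumor and 19 in neuron-like cells. Grin3b had 92 UMIs in tumor cells and 121 UMIs (4.68 CPM) in CD45+ cells. Its CPM was similar in tumor, progenitor-like, astrocyte-like and neuron-like CD45- cells. Over 20794 cells Gabra6 and Gabrp had 0 UMIs, Gabrr3 5, Grid2ip 7, Gabrr1 11, Grin1os 11, Gabrb2 15, Grm6 18, and Gabre and Gabrr2 53 each.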

How the data were processed

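Single-cell libraries of CD45+ and CD45- cells from EGFR-driven mouse GBMs were analysed from the deposited tables. The authors mapped reads with RapMap in bcbio-nextgen to the GRCm38 transcriptome (mm10 per the labels) with transgenes added, and told cells from empty droplets. The values deposited are raw UMI counts per cell. The authors describe removing ambient RNA and doublets, but whether the deposited counts precede these steps is not given in the sources used here. The library annotation deposited by the authors is text of another kind, which gives the run, sort and stage of each library. Of 20811 cell columns, 17 belonged to a library of 17 cells and were not used.

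Cells with at least 500 UMIs, at least 500 genes and at most 20% mitochondrial UMIs were kept, and Scrublet (in scanpy 1.11.5) removed 113 of 17786 cells scored (0.635%). Cells were clustered with leidenalg 0.10.2 into 34 clusters without the receptor, partner, sex and mitochondrial genes, and named from marker lists (a cluster took the name with the most markers at least 2-fold higher than elsewhere and in at least 10% of its cells, and 5 stayed unnamed). Summed counts were tested with edgeR 4.0.16 (R 4.3.3; TMM, filterByExpr, robust quasi-likelihood, two-sided, Benjamini-Hochberg over all genes, threshold 0.05), with the tumor sample as a block. SE is the log2 fold change divided by the root of F, and it is not a spread over samples. The samples pair by design, since both sorts of a stage come from the same tumor sample, and deviations of the paired sorts correlated at 0.36, 0.273 and 0.273 over 18510 genes. The block takes out differences between the tumor samples themselves. With 1 tumor sample per stage, p-values rest on how sort or class differences vary among samples of unlike stage. The classes of a fit share the estimate of this variation, also those with fewer sums. Intervals are 95% and exact (Poisson, binomial) and cover counting error only, and a count of 0 allows 3. DESeq2 1.42.0, other filters, scalings, class definitions and left-out samples and runs were the alternatives. Of these, counts scaled per cell and removal of the 5% of cells with the highest doublet scores, were chosen after seeing the data. The receptor genes and lists were chosen with earlier results of these data known. Members in the class fit are named with values, the others by counts, and from each partner list up to 4 genes with the smallest p. A few members and partner genes enter every count but are not reported here by name. Each fit was tested on simulated data.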

Additional observations from a re-analysis of the deposited data

How the results depend on the processing

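The paired design entered as a block, and without the replicate block 26 members were higher in CD45- cells (29 with it), 18 were lower in tumor than progenitor-like cells (20), 3 were higher and 8 lower than in astrocyte-like cells (2 and 9), 11 higher and 2 lower than in oligodendrocyte-like cells (10 and 2), and 7 higher and 3 lower in Pdgfra-type cells (7 and 2). Leaving out 1 tumor sample gave 26 to 29 called members between sorts, where 3924 to 4273 of all genes were higher and 3114 to 3164 lower. With every sample these were 4753 and 3764. Without the early sample 19 members were lower than in progenitor-like cells, where 1075 of 13206 genes were. Against astrocyte-like cells 2 were higher and 9 lower (1488 and 863 genes), and against oligodendrocyte-like cells 11 and 2 (2962 and 2353). Leaving out the medium or the late sample left 1 tumor sum in these comparisons. Between tumor types no fit was possible without the late sample, since no Lgals1-type sum was left. The calls over all genes changed between alternatives too, so member counts alone show neither stability nor loss. Counts scaled per cell called 13 members against progenitor-like, 20 against astrocyte-like and 20 against oligodendrocyte-like cells, and DESeq2 called 5 between tumor types.

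Per-cell scaling also reversed Gabra2 between sorts (0.67), Gria3 against progenitor-like cells (0.20), Gabra2 (0.43), Gria2 (1.13), Grik3 (1.38) and Grik5 (1.36) against astrocyte-like cells, and Gabra2 (1.42) and Grik1 (1.34) against oligodendrocyte-like cells. By construction it keeps the higher UMI content of tumor cells in the comparison. Grin2c against progenitor-like cells reversed without sequencing run 2 (1.83) and without the medium sample (2.35) and was -6.51 without the late sample, and the cause was not tested. The late to medium ratio in tumor cells was 1.13, 0.962 and 1.25 within the sequencing runs and 0.975 with cells thinned to 1000 UMIs. Under all alternatives 24 of 29 calls between sorts, 8 of 20 against progenitor-like, 9 of 11 against astrocyte-like, 8 of 12 against oligodendrocyte-like cells and 4 of 9 between tumor types were kept, and the 8 included Gabbr1, Gabbr2, Gabra4, Gabrb1, Grid1, Grik1 and Grin3a. An alternative counted only where the gene entered its fit. Gabra4 entered 15 of 17 against progenitor-like and against astrocyte-like cells, and between sorts Grin2c entered 11 and Grm7 12 of 13. Class sums of 23 to 147 cells limit what could be found in the astrocyte-like and progenitor-like classes.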
